A study of Homo sapiens with 3 samples.

Results

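Tetraspanins are small proteins that cross the membrane repeatedly and gather integrins, proteases, growth factor receptors and each other into microdomains of the cell surface and of endosomes. In epithelial cells they are known for adhesion and motility (CD151, CD9, CD82), for the release of extracellular vesicles (CD9, CD63, CD81) and for carrying the sheddase ADAM10 to the surface (the TspanC8 group, TSPAN5, TSPAN10, TSPAN14, TSPAN15, TSPAN17 and TSPAN33). The tetraspanin genes were selected by name, as all probes for transcripts named TSPAN with a number or CD9, CD37, CD53, CD63, CD81, CD82 or CD151. This gave 42 of 58201 probes and 29 of 43317 gene names. The lists of tetraspanins and of their partners were put together with earlier results of these arrays known, so the differences from NC are given as a description, with no test.

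The cells were HCT116, an established line from a colorectal carcinoma, into which siRNA was transfected using a Lipofectamine reagent. There was 1 array each of SMARCA4-KD1 and SMARCA4-KD2, in which SMARCA4, the ATPase of the SWI/SNF chromatin remodeler, was targeted by 2 different siRNAs, and 1 array of NC, the control transfection. Because no condition had a second array, the spread between cultures is unknown for each difference below, and precision is limited by the 3 arrays. The titles of the samples name SMARCA4 and their treatment field names PRMT1, so both genes were read first.

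The SMARCA4 signal was 14026 in NC, 3960.2 with SMARCA4-KD1 and 4129 with SMARCA4-KD2, which left 26.6% and 28.8% of the NC level, while PRMT1 was at 120% and 129%. Of the probes on each array, 45.7% to 47.3% were well above background. NC was hybridised on slide 2 and both knockdowns on slide 1, in separate scans, so slide and knockdown cannot be told apart. Of 8 epithelial markers, EPCAM, KRT8, KRT18, KRT19, CDH1 and CDX2 were well above background on every array and CDH17 and VIL1 on none. Among leukocyte markers, PTPRC and CD14 had a probe well above background, with signals from 37.0 to 54.4, and CD3E, MS4A1 and LYZ did not. Of 4 fibroblast markers, COL1A1 was well above background on every array, with 348 in NC, 477 with SMARCA4-KD1 and 387 with SMARCA4-KD2. COL1A2, COL3A1 and PDGFRB were not measured. Of 3 endothelial markers, CDH5 and VWF were above background on every array, with signals from 24.1 to 61.2, and PECAM1 was not measured. RNA came from whole cultures, in which a lower level in every cell and a loss from some of the cells cannot be told apart.

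Probe sequences are shown for TSPAN3 and TSPAN14, because the results on these genes turn on which probe is read. The first 30 bases of each 60-base probe are given 5′ to 3′ as in the array files, all in lower case since no part is marked. TSPAN3 lies on the minus strand of chromosome 15 of hg19 and TSPAN14 on the plus strand of chromosome 10.
TSPAN3, probe at chr15:77338514-77338573: ggctttataggaggagtataatgtatgcac
TSPAN3, probe at chr15:77334321-77334380: tgtgttagctgtgtgggtacattagtacca
TSPAN14, probe at chr10:82276016-82276075: aagctggctcccgcggaacatttacattgt
TSPAN14, probe at chr10:82279096-82279184: taagtactgaataactcccctggggatagc
TSPAN14, probe at chr10:82280514-82280573: caccatgccccacgtagctgaaagctgctt
TSPAN14, probe at chr10:82281858-82281917: aaggaggacgtgagtattccttacaaggct
The TSPAN14 probes span 5902 bases of the locus. The first of them, nearest the gene's start, has no stop codon in any of its 3 forward reading frames over its 60 bases, and the second has a stop codon in each frame.

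Of the 29 tetraspanin genes, 24 were well above background on at least 1 array, and 22 of these on all arrays. The other genes could not be measured here. CD37, CD53 and TSPAN32, tetraspanins of blood cells, and TSPAN16 had probes with signals between 3.33 and 3.95, below background on each array. TSPAN8, which is often high in gastrointestinal tumors, had a signal of 14.7 in NC, 5.72 with SMARCA4-KD1 and 3.29 with SMARCA4-KD2, none of them well above background, so no fold is given. All the counts that follow are over the 24 genes that passed, each represented by its brightest probe, on a log2 scale set to 0 at the 75th percentile of its array. Where 3 signals stand together they are those of NC, SMARCA4-KD1 and SMARCA4-KD2, and pairs of values are those of SMARCA4-KD1 and SMARCA4-KD2, in that order. Errors are those of the extraction software's error model, which come to 0.20 on the log2 scale for a difference between bright spots. Repeated spots of other probes varied within an array by a median SD of 0.03 to 0.04.

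After SMARCA4 knockdown the tetraspanin genes differed from NC by about as much as all genes did. Their median absolute log2 difference was 0.30 and 0.27, against 0.31 and 0.28 for all genes. At the 1.5-fold threshold, 3 of the 24 genes were lower in SMARCA4-KD1, against 12.2% of the 22620 genes on the array, and 4 were lower in SMARCA4-KD2, against 9.77%. The same 3 genes, TSPAN3, TSPAN14 and TSPAN19, were lower in both knockdowns, where 8.03% of all genes were. None of the 24 was 1.5-fold higher in SMARCA4-KD1, against 11.2% of all genes, none in SMARCA4-KD2, against 10.1%, and none in both, against 6.36%. The members' shares of lower genes, 12.5% with SMARCA4-KD1 and 16.7% with SMARCA4-KD2, lie at and above these backgrounds by a margin of few genes, and with normexp background correction only TSPAN3 was lower in both. By any amount, 13 genes (54.2%) were lower in both knockdowns, against 39.3% of all genes. Another 7 (29.2%) were higher in both, against 41.1%, and 4 had opposite signs. The 13 include TSPAN2, above background in NC alone, and TSPAN19, not above background in SMARCA4-KD1. The filter favours a lower reading for such genes, and the shares were not recounted without them. The median over the 24 genes on the log2 scale was -0.21 and -0.20 for the first and second knockdown, against 0.00 and 0.02 for all genes. When only the 22 genes above background on all arrays were used, the medians were -0.063 and -0.14. Those of all genes under this filter were 0.02 and 0.04. Both comparisons share the NC array.

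**Figure D1:**
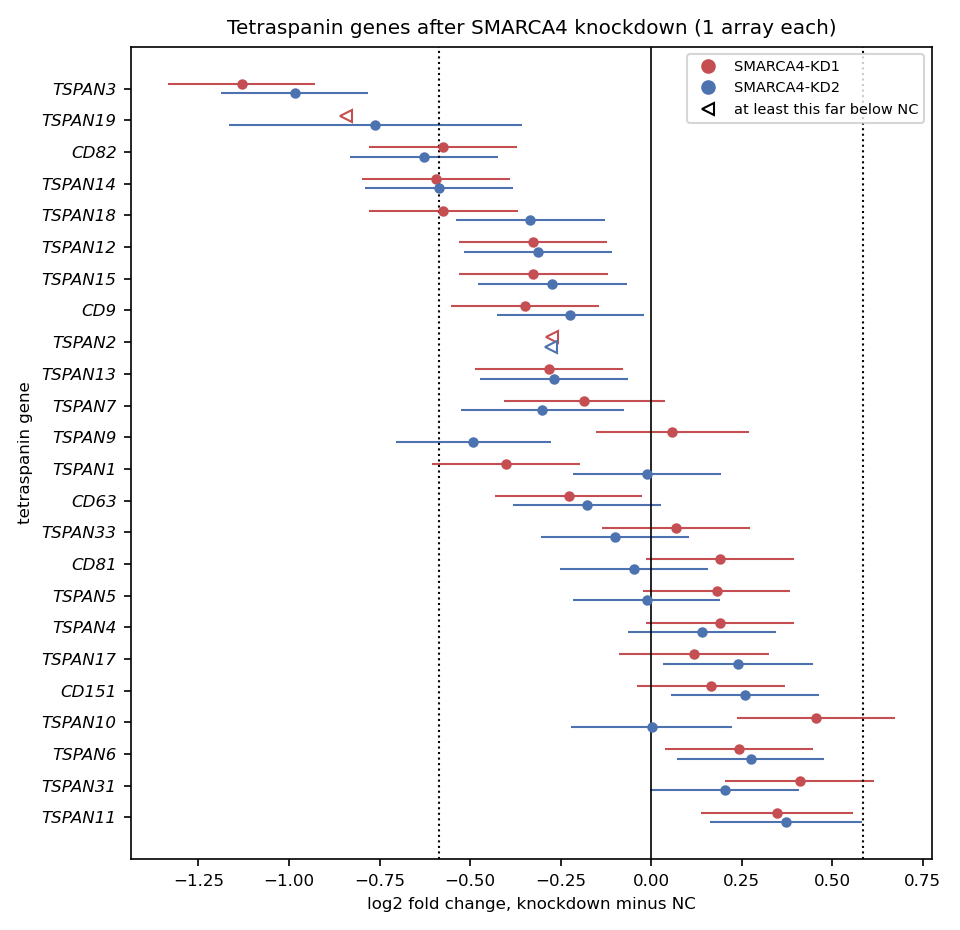
Log2 fold change from NC (x axis) of the 24 measured tetraspanin genes (y axis, ordered by the mean of both knockdowns) in SMARCA4-KD1 (red) and SMARCA4-KD2 (blue). Points are single arrays, bars are the error of the extraction software, open triangles are limits where the knockdown value was not well above background, and dotted lines mark 1.5-fold. TSPAN3 lies farthest to the left, at -1.13 and -0.98, and no gene reaches the right-hand line.

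TSPAN3 was the tetraspanin with the largest fall from NC that was measured above background on all 3 arrays. It is a widely expressed member of the family. Its signal was 10329 in NC, 5000.2 with SMARCA4-KD1 and 5337.5 with SMARCA4-KD2. Both knockdown values were about the same and lay clearly below NC. Its log2 fold changes were -1.13 ± 0.20 (error of the extraction software) and -0.98 ± 0.20 for the first and second knockdown, 2.19-fold and 1.98-fold lower. Across the alternatives of processing it stayed between -1.25 and -0.98. These values rest on 1 probe. The other TSPAN3 probe, whose sequence differs and which matches a position 4253 bases away counted from end to end, had signals from 3.33 to 3.66 and was not well above background on any array.

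TSPAN14, a TspanC8 member that carries ADAM10 to the cell surface and the tetraspanin that the study names, sat on the threshold. By its brightest probe its signal was 2606.2 in NC, 1830.7 with SMARCA4-KD1 and 1775.7 with SMARCA4-KD2. The knockdown arrays were close to each other and below NC, with log2 fold changes of -0.59 ± 0.20 and -0.59 ± 0.20, or 1.51-fold lower in the first and at the 1.5-fold line in the second. The study listed this gene from these arrays together with arrays of PRMT1 knockdown and published SMARCA4 ChIP-Seq data. Its direction here is therefore not independent evidence. The 3 other probes were less than 1.5-fold from NC. The probe at 82281858 had 1361.3, 1097.4 and 1065.7 in the same order, log2 fold changes of -0.40 and -0.39. The probe at 82280514 had 70.2, 55.7 and 49.2, log2 fold changes of -0.42 and -0.54. Thus these probes went the same way as the brightest one, by less. The probe at 82276016 had 55.7, 64.0 and 45.6, log2 fold changes of 0.12 and -0.32, and was higher than NC in SMARCA4-KD1 and lower in SMARCA4-KD2. Averaged over the 4 probes, the difference on the log2 scale was -0.32 with SMARCA4-KD1 and -0.46 with SMARCA4-KD2, under 1.5-fold in both. This average weighs the probes alike, though those at 82280514 and 82276016 were dim, with errors of 0.23 to 0.25. The value of 0.12 lies within its error. Over all alternatives of processing the SMARCA4-KD1 value lay between -0.65 and -0.32 and the SMARCA4-KD2 value between -0.63 and -0.46.

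TSPAN19 was dim. This little-studied member, with its probe at chr12:85409721-85411264 of hg19, had a signal of 28.6 in NC, 17.2 with SMARCA4-KD2 and 9.05 with SMARCA4-KD1, the last not well above background. The fall was therefore at least 1.79-fold for SMARCA4-KD1, while SMARCA4-KD2 was 1.70-fold lower with a log2 fold change of -0.76 ± 0.40. With normexp background correction, its log2 fold changes were -0.36 and -0.14. That correction adds an offset of 50 to each intensity, which by itself draws the fold of so dim a probe towards 0. TSPAN2, known from oligodendrocytes, was above background in NC alone, with signals of 19.2, 9.81 and 11.9. It was at least 1.21-fold lower in both knockdowns.

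CD82 (probe at chr11:44640896-44640955 of hg19), also named KAI1 and known as a suppressor of metastasis, was just outside the threshold in one knockdown and just inside in the other. Its signal was 677 in NC, 482 with SMARCA4-KD1 and 448 with SMARCA4-KD2. Both knockdown arrays were below NC by a similar amount, with log2 fold changes of -0.57 ± 0.20 and -0.63 ± 0.20, 1.49-fold and 1.54-fold lower. Quantile normalization put CD82 past 1.5-fold in both knockdowns. TSPAN18, a tetraspanin that binds the calcium channel ORAI1 and that is named here after its values were seen, is the next tetraspanin after CD82 on chromosome 11, with 312 kb between the probes. It had 430, 306 and 349, log2 fold changes of -0.57 and -0.33.

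**Figure D2:**
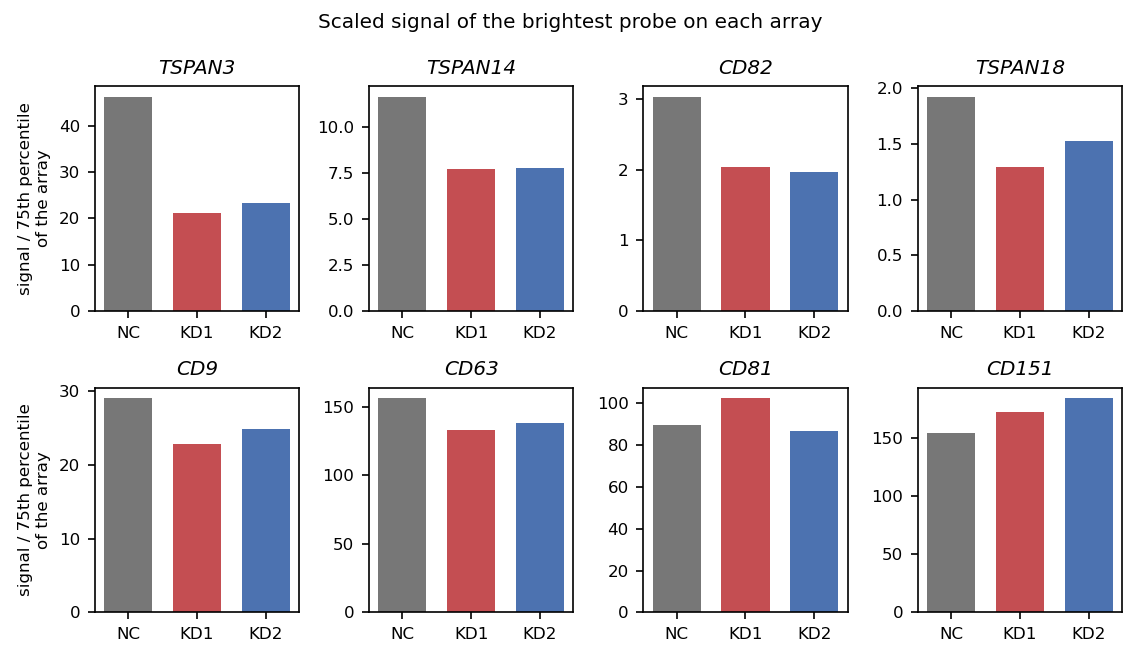
Processed signal divided by the 75th percentile of the array (y axis, from 0) of the brightest probe of 8 tetraspanin genes in NC (grey), SMARCA4-KD1 (red) and SMARCA4-KD2 (blue), 1 array each, so that there are no error bars. Each gene has its own axis and levels should not be compared between genes. TSPAN3, TSPAN14, CD82, TSPAN18, CD9 and CD63 are below NC on both knockdown arrays and CD151 is above.

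The tetraspanins that mark extracellular vesicles kept within 1.5-fold of NC. CD9 (probe at chr12:6342625-6344426 of hg19), which also binds integrins and the growth factor HBEGF, had a signal of 6493.2 in NC, 5408.8 with SMARCA4-KD1 and 5689.2 with SMARCA4-KD2. Its log2 fold changes were -0.35 ± 0.20 and -0.22 ± 0.20. CD63, a marker of late endosomes, had 34934, 31623 and 31581, with -0.23 and -0.18, so both knockdown arrays were slightly below NC by about the size of the error. CD81, a partner of EWI proteins, had 20058, 24265 and 19840, with 0.19 and -0.05. The second CD81 probe gave 0.13 and -0.07, so both probes were above NC in SMARCA4-KD1 and below it in SMARCA4-KD2, within the error.

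Among the tetraspanins known from integrin binding and motility, CD151 (probe at chr11:838770-838829 of hg19), the main partner of the laminin-binding integrins, had values slightly above NC. Its signal was 34313 in NC, 40792 with SMARCA4-KD1 and 41978 with SMARCA4-KD2, with log2 fold changes of 0.17 ± 0.20 and 0.26 ± 0.20. TSPAN4, known from migrasomes and the next tetraspanin on chromosome 11 with 28.1 kb between the probes, had 3324.8, 4020.7 and 3749.4. Its log2 fold changes were 0.19 and 0.14 by one probe and 0.20 and 0.13 by the other. Both genes were above NC on each knockdown array, by less than 1.5-fold. Of the 6 members in this list, 5 were measured and none passed 1.5-fold in both knockdowns, with a median of 0.17 with SMARCA4-KD1 and -0.05 with SMARCA4-KD2.

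All 6 TspanC8 genes were well above background on every array, and TSPAN14 was the only one of them past 1.5-fold in either knockdown by the brightest probe. The median log2 fold change of the group was 0.09 with SMARCA4-KD1 and -0.06 with SMARCA4-KD2. TSPAN15, which directs ADAM10 to N-cadherin, had 238 in both knockdowns and 281 in NC, log2 fold changes of -0.33 and -0.27. TSPAN5, linked to cleavage of Notch by ADAM10, had 7393.1, 8883.6 and 7494.0, log2 fold changes of 0.18 and -0.01. TSPAN17 had 184, 212 and 222 by its brightest probe, log2 fold changes of 0.12 and 0.24, and 0.22 and 0.31 by its other probe. These genes lay on both sides of NC. TSPAN33, known from red blood cell precursors, had 0.07 and -0.10 by its brightest probe, while its other probes gave 0.28 and 0.30, and 0.05 and 0.12. TSPAN10, known from pigment cells, had 85.4 in NC, 124 with SMARCA4-KD1 and 87.5 with SMARCA4-KD2 by its brightest probe, log2 fold changes of 0.46 and 0.00. Its other probe had 66.7, 70.6 and 94.3, log2 fold changes of 0.00 and 0.47. The probes of TSPAN10 thus differed on which knockdown was higher.

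The remaining members, named after their values were seen, kept within 1.5-fold. TSPAN12, a co-receptor for Norrin signaling, had log2 fold changes of -0.33 and -0.31, TSPAN13 had -0.28 and -0.27, and TSPAN7, known from X-linked intellectual disability, had -0.18 and -0.30. TSPAN11 (0.35 and 0.37), TSPAN31 (0.41 and 0.20) and TSPAN6 (0.24 and 0.27) were above NC on both arrays. TSPAN1 (-0.40 and -0.01) and TSPAN9 (0.06 and -0.49), a platelet tetraspanin, differed most between the knockdowns among genes above background on all arrays, apart from TSPAN10. TSPAN9 had a signal of 131 in NC, 145 with SMARCA4-KD1 and 95.5 with SMARCA4-KD2. Over the 24 genes, the median absolute difference between the 2 knockdown arrays was 0.10 on the log2 scale, against 0.13 for all genes. The median absolute difference from NC was 0.30 and 0.27, against 0.31 and 0.28 for all genes.

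Promoter sequences are shown for the members at least 1.5-fold lower in either knockdown for which RefSeq (GRCh38.p14) gave one. These genes went the same way. The 250 bases before the start are given 5′ to 3′ on the strand of the gene, in lower case with motifs in capitals. The motifs searched on both strands were the TATA box TATAAA, the CCAAT box, the GC box GGGCGG, the AP-1 site TGACTCA and the E-box CACGTG, with overlapping matches counted separately. Of the 29 genes, 21 had a promoter in the table, and CD151, CD37, CD81, TSPAN18, TSPAN3, TSPAN32, TSPAN7 and TSPAN9 did not.
TSPAN14, chr10:80454060-80454309, plus strand: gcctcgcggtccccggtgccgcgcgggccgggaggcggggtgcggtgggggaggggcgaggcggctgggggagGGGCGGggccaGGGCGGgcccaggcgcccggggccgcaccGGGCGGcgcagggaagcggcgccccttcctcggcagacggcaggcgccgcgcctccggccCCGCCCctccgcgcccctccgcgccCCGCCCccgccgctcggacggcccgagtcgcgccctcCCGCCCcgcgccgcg
CD82, chr11:44565413-44565662, plus strand: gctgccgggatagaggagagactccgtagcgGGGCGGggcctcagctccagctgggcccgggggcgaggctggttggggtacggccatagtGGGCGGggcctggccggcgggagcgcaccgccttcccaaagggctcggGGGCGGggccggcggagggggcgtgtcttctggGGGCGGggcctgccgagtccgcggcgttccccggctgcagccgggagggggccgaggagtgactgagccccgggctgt
TSPAN19, chr12:85036278-85036527, minus strand: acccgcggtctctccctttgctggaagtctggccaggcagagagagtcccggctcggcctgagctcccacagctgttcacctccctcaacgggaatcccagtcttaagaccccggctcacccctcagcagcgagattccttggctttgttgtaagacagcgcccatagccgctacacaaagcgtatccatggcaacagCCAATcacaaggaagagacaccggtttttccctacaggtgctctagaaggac

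The promoters of TSPAN14 and CD82 were GC-rich and that of TSPAN19 was not. The capitals mark 6 GC boxes in TSPAN14, where 2.22% of all 35116 promoters held as many, 4 in CD82 (7.63% of all promoters) and none in TSPAN19, which had 1 CCAAT. TSPAN14 had a GC content of 88% and 45 CpG, values reached by 0.0655% and 0.589% of all promoters. TSPAN5, whose level changed little, had 10 GC boxes, and TSPAN17, above NC in both knockdowns, had 6, as TSPAN14 did. TSPAN11, also above NC in both, had a GC content of 80%. Many GC boxes and a high GC content were thus also found outside the genes shown. Members below NC in both knockdowns other than those shown had from 0 GC boxes (CD9 and CD63 among them) to 5 (TSPAN2). Over the 21 promoters, GGGCGG was in 52.4% (42.6% of all promoters), CCAAT in 33.3% (32% of all), TGACTCA in 4.76% (4.2% of all), while CACGTG was in none (6.34% of all) and neither was the TATA box, found in 3763 of the 35116. TSPAN10 was the 1 promoter with TGACTCA, which it held at 2 positions. Median GC content was 59.6%, against 58% for all promoters. These matches are letters in a fixed window and were set beside the expression values without a test.

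The 29 genes were counted by chromosome, without the share of all genes that each chromosome holds. Chromosome 12 held 7 of them (CD63, CD9, TSPAN8, TSPAN9, TSPAN11, TSPAN19 and TSPAN31) and chromosome 11 held 6 (CD151, CD81, CD82, TSPAN4, TSPAN18 and TSPAN32). On chromosome 12 members went both ways, from TSPAN11 at 0.35 and 0.37 to TSPAN19, which was lower. On chromosome 11, CD151 and TSPAN4 were above NC and CD82 and TSPAN18 below it, while TSPAN32, with its nearest probe 79.5 kb from that of CD81, was not well above background. The order of neighbours here counts tetraspanins alone.

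A list of 41 genes whose products bind tetraspanins, are cut by ADAM10 or act in vesicle release was read on the same arrays. Of the 39 measured, 6 were at least 1.5-fold lower in both knockdowns (15.4%, against 8.03% of all genes) and 1 was higher (2.6%, against 6.36%). With normexp background correction 2 of the 6, CHMP4B and RAB27B, were lower in both. The counts are small, and no theme is drawn from them.

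Of the 13 genes of vesicle release, 3 were at least 1.5-fold lower in both knockdowns, where 8.03% of all genes were. This is a difference of few genes. RAB27B, a small GTPase that brings secretory vesicles to the plasma membrane, had a signal of 275 in NC, 95.7 with SMARCA4-KD1 and 99.0 with SMARCA4-KD2. It was 3.05-fold and 2.84-fold lower, log2 fold changes of -1.61 ± 0.21 and -1.51 ± 0.21, and -1.63 and -1.76 by its second probe. RAB27A, which acts in the docking of multivesicular endosomes, had 181, 113 and 106, log2 fold changes of -0.77 and -0.80. CHMP4B, a subunit of the membrane-cutting ESCRT-III complex, had 1642, 935 and 1115, log2 fold changes of -0.90 and -0.59. The other 10 genes of this list were within 1.5-fold in both knockdowns. Over the 13 genes the median was -0.14 with SMARCA4-KD1 and -0.07 with SMARCA4-KD2.

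Of the 7 integrin subunits, ITGA3, which forms a laminin receptor with ITGB1 and binds CD151, was 1.59-fold and 1.97-fold lower, with signals of 3472.8 in NC, 2314.8 with SMARCA4-KD1 and 1805 with SMARCA4-KD2. ITGA6 (-0.14 and -0.26), ITGB1 (-0.03 and 0.10) and ITGB4 (-0.18 and 0.02) stayed close to NC, while ITGA7 had -0.47 and -0.55, below NC by less than 1.5-fold. Thus among the laminin-binding subunits only ITGA3 passed 1.5-fold, and the median of the list was -0.18 and -0.26. MET, the receptor of hepatocyte growth factor, had 38279, 25430 and 23293, log2 fold changes of -0.67 and -0.75. CLDN7, a tight junction protein found in complexes with EPCAM and tetraspanins, was the 1 higher gene, with 6535.6, 11962 and 10983 and log2 fold changes of 0.79 and 0.72. The EWI proteins IGSF8 (0.00 and -0.39) and PTGFRN (-0.47 and -0.38), direct partners of CD9 and CD81, were within 1.5-fold. The related IGSF3 was 1.64-fold lower in SMARCA4-KD1, with dim signals of 38.6, 24.9 and 28.8 and log2 fold changes of -0.72 and -0.46.

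ADAM10, the cargo of the TspanC8 group, had log2 fold changes of -0.26 and -0.11, within 1.5-fold. Among ADAM10 and the other genes of its list, BTC, an EGFR ligand that ADAM10 releases, was lower in both knockdowns, with dim signals of 36.0 in NC, 24.8 with SMARCA4-KD1 and 19.0 with SMARCA4-KD2 and log2 fold changes of -0.62 ± 0.32 and -0.95 ± 0.36. With normexp background correction its values were -0.08 and -0.19, but the offset of 50 in that correction draws folds of such dim signals towards 0 by itself. ADAM17, the other sheddase of the list, lay above NC, with signals of 1563.6, 2515.8 and 2227.6 and log2 fold changes of 0.60 and 0.48, past 1.5-fold in SMARCA4-KD1 alone. IGSF3, ADAM17 and ITGA7 are named after their values were seen.

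**Figure D3:**
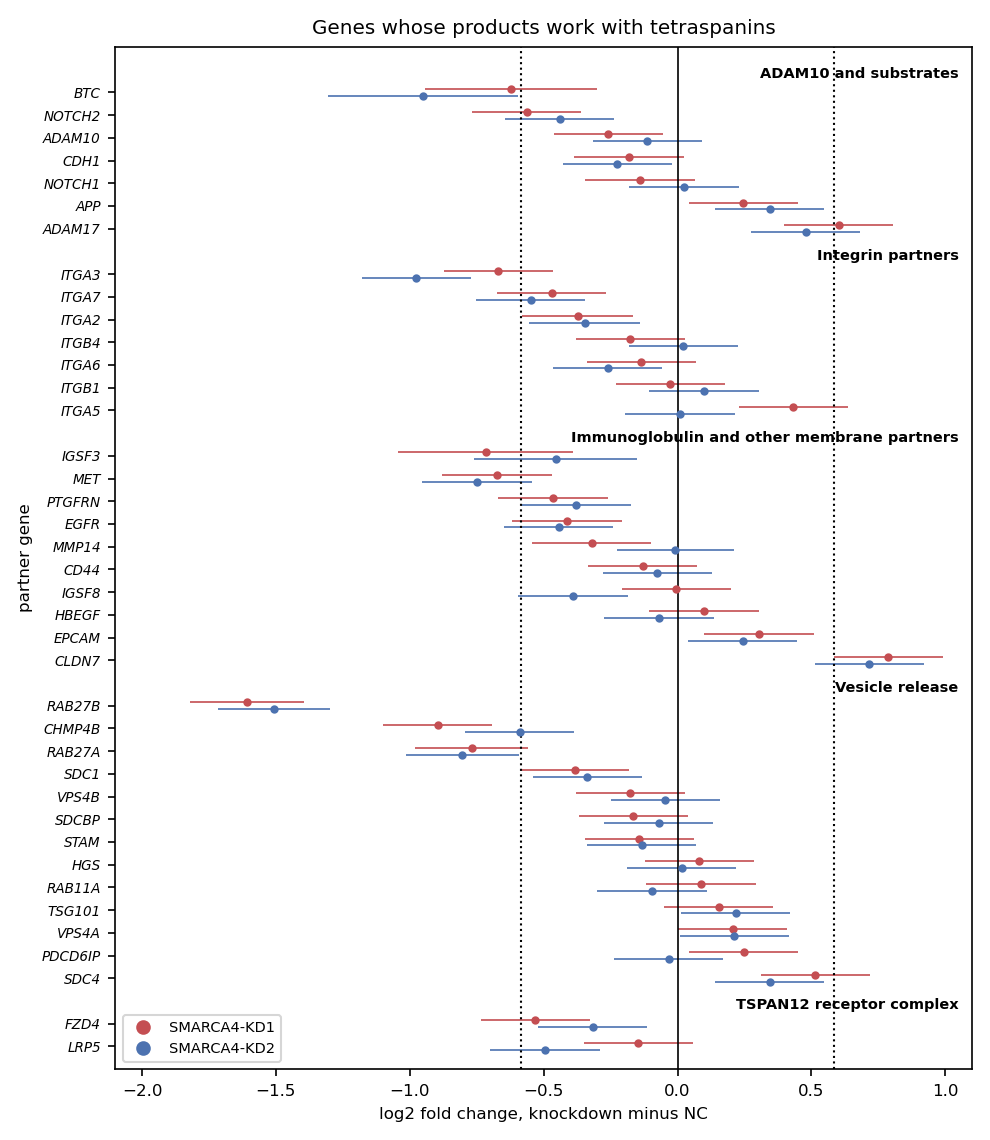
Log2 fold change from NC (x axis) of the 39 measured partner genes (y axis, grouped by list) in SMARCA4-KD1 (red) and SMARCA4-KD2 (blue), 1 array each. Bars are the error of the extraction software and dotted lines mark 1.5-fold. RAB27B lies farthest to the left at -1.61 and -1.51, and CLDN7 is the only gene past the right-hand line on both arrays.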

How the data were processed

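Transcript levels were read on 1-colour (Cy3) Agilent SurePrint arrays of human genes. The deposited scanner files hold intensities from Agilent Feature Extraction 10.7.1.1, as named in the submitters' processing notes, with detrending and background subtraction and without normalization between arrays. Other deposited columns, such as 0 or 1 flags, were used as given. The deposited series-level table holds intensities equal within 0.1% to the processed signal for all 42 tetraspanin probes. The knockdown number came from the treatment field of the labels.

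Controls and outlier-flagged spots were dropped, repeated spots were averaged as log2, and the 75th percentile of each array was subtracted. Where a spot did not exceed background clearly, its value was raised to the array's lowest value that did, if lower, and a fold against it is a limit. A gene needed 1 array clearly above background, and its brightest probe was used (22620 genes). Differences from NC were read at 1.5-fold, the fold of the study's methods. The p of those methods was not used, with 1 array per condition.

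The genes named were those past 1.5-fold in either knockdown, TSPAN14, CD9, CD63, CD81, CD82, CD151, TSPAN8, the TspanC8 group, members with probes past 1.5-fold in opposite directions (none had), and partners that were past 1.5-fold in both knockdowns or bind a named member. The members and lists were chosen with earlier results of these data known. Alternatives are given in the closing section. The steps were tested on simulated data, with 2-fold changes in genes that were bright in NC. Falls of dim genes, changes near 1.5-fold, slide effects and differences in detection between arrays were not simulated. The simulation therefore gives no measure of accuracy for the values reported here. Tools were Python 3.11.15, numpy 2.4.6, pandas 2.3.3, matplotlib 3.10.9, R 4.3.3 and limma 3.58.1 (for normexp with an offset of 50). One leukocyte marker is not reported here.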

Additional observations from a re-analysis of the deposited data

How the results depend on the processing

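With 1 array per condition, the spread between replicates is unknown and no replicate could be left out. No paired analysis was possible because each group had 1 array. Of 318 values of single genes under the alternatives, 305 moved by less than the error of the extraction software, 13 moved by more, and 0 changed sign among genes past 1.5-fold. Many of the 305 could not move, so their number is no measure of robustness. The filters, the floor and the series-level table leave a gene above background on all arrays at its main value. Averaging probes leaves a gene with 1 detected probe as it was. The count of tetraspanin genes lower in SMARCA4-KD1 was 5 with quantile normalization and 5 with the scaling percentile taken over detected probes alone, both of which added CD82 and TSPAN18. With normexp background correction the lower genes were 1 in SMARCA4-KD1 (TSPAN3), 2 in SMARCA4-KD2 (TSPAN3 and CD82) and 1 in both, and 2 partner genes (CHMP4B and RAB27B) were lower in both. At 2-fold the tetraspanin counts were 1, 0 and 0, and the partner counts were 1 lower and 0 higher. The median log2 fold change of the tetraspanins in SMARCA4-KD2 was -0.28 with quantile normalization and -0.12 with normexp, and that in SMARCA4-KD1 was -0.063 with the filter on all arrays. The cause of these moves was not tested, and the normexp offset of 50 by itself draws fold changes of dim genes towards 0. The count of tetraspanin genes that were 1.5-fold higher was 0 in each knockdown under every alternative tried. Without the floor, or with the series-level table, TSPAN2 joined the genes lower in both knockdowns. The settings for the partner genes were added after the data were seen. Without a filter the median of all genes was -0.15 in both knockdowns, and that of the 29 tetraspanins was -0.15 as well, the value that genes at the floor on all arrays take.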

Other observations

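Tetraspanins whose names do not follow the rule were read as well. Of UPK1A, UPK1B, PRPH2 and ROM1, which are known from the bladder lining and from photoreceptors, UPK1B and PRPH2 were not well above background on any array. For SMARCA4-KD1 and SMARCA4-KD2, UPK1A had log2 fold changes of 0.11 and 0.25, and ROM1 had -0.16 and -0.02, within 1.5-fold of NC.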
